A study of Mus musculus with 8 samples.

Results

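The lysosomal module described here is a list of 44 mouse genes, out of 43346 genes in the deposited count table. It holds 7 lysosomal membrane proteins, 20 hydrolases and their cofactors, 14 subunits of the vacuolar proton pump (V-ATPase) and the transcription factors Tfeb, Tfe3 and Mitf. The genes were chosen by name, but with earlier results of these data known. The cathepsins and Atp6v0d2 were left out of the list, and all 44 members were found in the table and passed the filter on low counts. Polyadenylated RNA was sequenced from mouse macrophages of 3 cell types, each after 3 h with lipopolysaccharide (LPS), a bacterial cell wall component that activates macrophages through Toll-like receptor 4, and without it. The cell type labelled hMPDM had 1 labelled library after LPS and 1 unstimulated, and a further pair of count columns with hMPDM names matched no labelled sample and was not used. RAW 264.7 (RAW), an established mouse macrophage-like line, also had 1 library after LPS and 1 unstimulated library. Bone marrow-derived macrophages (BMDM), grown in L929-conditioned medium, had 2 libraries after LPS and 2 unstimulated libraries. No genotype, strain, age or sex is given for any group, all groups share the RNA and library protocol, and the sources used here give neither the LPS dose nor what hMPDM stands for. No label ties the BMDM pairs to separate animals or cultures, so the p-values speak of the spread among these libraries alone, which may be technical.

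Library totals were 5510319 counts (LPS) and 15318338 (rest) in hMPDM, 4078496 (LPS) and 3116434 (rest) in RAW, and 7977638 and 15261114 (LPS) and 15671839 and 19307312 (rest) in BMDM. The 11 macrophage markers checked (Csf1r, Adgre1, Cd68, Lyz2 and others) all had reads and passed the filter on low counts. They summed to 15560 to 21666 CPM (counts scaled to a common library size by TMM). The sum hides single markers that went opposite ways. In RAW at rest 5 of the 11 were above BMDM and 6 below (log2 difference -4.49 to 2.11). In hMPDM at rest 7 were above BMDM and 4 below. The 7 T and NK cell markers were at 0 in all libraries. The 6 LPS markers (Tnf, Il1b, Cxcl10, Il6, Nfkbia and Ptgs2) summed to 7972 CPM after LPS and 91.6 CPM at rest in hMPDM, to 1522 and 152 CPM in RAW, and in BMDM to 11948 and 11650 CPM after LPS, against 118 CPM in both unstimulated libraries. All 6 were above 0 in the LPS response of hMPDM and of BMDM, whereas in RAW 5 were above 0 and 1 had a log2 ratio of 0. The hMPDM LPS library was checked with 16 genes chosen because unstimulated hMPDM held them at 5% or less of their BMDM level. They lay at 10.8% of the BMDM LPS level in it, and at 1.35% of the BMDM resting level in the unstimulated hMPDM library. The choice itself keeps the resting figure low, so the contrast does not show that the LPS library stands apart. Whether the 10.8% comes from BMDM reads was not tested. As a precaution, the hMPDM LPS ratios and the tests that use this library were also computed after subtracting that share of the BMDM LPS profile (the BMDM share). The subtraction moved no member's ratio by more than 0.092 on the log2 scale. In bulk RNA, fewer cells of a type and less RNA per cell cannot be told apart.

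Lysosomes are acidic organelles in which macrophages degrade what they take up by phagocytosis and endocytosis and what autophagy delivers. The V-ATPase acidifies them: its cytosolic V1 sector hydrolyses ATP and turns a rotor that drives protons through the membrane-embedded V0 sector. Soluble hydrolases and their activator proteins break down glycolipids, glycans, lipids and proteins, and loss of single members causes lysosomal storage diseases such as Tay-Sachs (Hexa), Pompe (Gaa), Fabry (Gla) and Niemann-Pick type C (Npc1, Npc2). Tfeb, Tfe3 and Mitf form the MiT/TFE family, basic helix-loop-helix leucine zipper factors that bind E-box sequences around CACGTG near many lysosomal genes. Phosphorylation by mTORC1 at the lysosome keeps these factors in the cytoplasm, so their mRNA level is not a measure of their activity.

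The E-box CACGTG was looked up in RefSeq promoter windows of the GRCm38.p6 build, each reaching from 250 bases before to 50 bases after an annotated start. Windows were held for 39 of the 44 genes and not for Npc1, Asah1, Atp6v1b2, Atp6v1c1 and Atp6v1h. CACGTG, which reads the same on both strands, was present for 10 of the 39 genes (25.6%), against 8.09% of the 27025 genes with a window. The longer form TCACGTGA, which contains CACGTG, was present for 5 of the 39 (12.8%), against 1.12% of all genes, and a 10-base palindrome that extends it by a base on each side for 0 of the 39, against 0.37%. The related TCATGTGA, searched on both strands, was present for 5 of the 39 (12.8%), against 1.15%. None of these motifs was in the windows of Tfeb, Tfe3 or Mitf. The 10 stretches with CACGTG are shown because they are where the family's motif sits in this module, written 5′ to 3′ along the gene's strand with each CACGTG in capitals. Lamp1 (chr8:13159083-13159160, plus strand) held 4 copies. Atp6v0b (chr4:117887330-117887382, minus strand), Mcoln1 (chr8:3500431-3500496, plus strand) and Gla (chrX:134601177-134601249, minus strand) held 2 copies each. Single copies lay at Atp6v0d1 (chr8:105566054-105566075, minus strand), Atp6v0e (chr17:26676391-26676412, plus strand), Atp6v1a (chr16:44139368-44139407, minus strand), Glb1 (chr9:114401013-114401052, plus strand), Gaa (chr11:119267806-119267845, plus strand) and Lgmn (chr12:102439119-102439158, minus strand).
Lamp1: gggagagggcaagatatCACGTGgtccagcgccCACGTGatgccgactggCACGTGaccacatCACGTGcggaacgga
Atp6v0b: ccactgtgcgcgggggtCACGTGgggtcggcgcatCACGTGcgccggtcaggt
Mcoln1: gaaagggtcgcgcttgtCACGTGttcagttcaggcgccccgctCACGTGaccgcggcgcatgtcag
Gla: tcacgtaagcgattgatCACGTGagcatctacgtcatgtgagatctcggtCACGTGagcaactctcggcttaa
Atp6v0d1: actgcggtCACGTGagacgcgg
Atp6v0e: gcgccgatCACGTGagcctctg
Atp6v1a: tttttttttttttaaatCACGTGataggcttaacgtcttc
Glb1: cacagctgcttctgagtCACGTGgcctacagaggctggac
Gaa: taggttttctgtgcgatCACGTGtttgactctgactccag
Lgmn: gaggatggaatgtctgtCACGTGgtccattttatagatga

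Compared per length, in FPKM (CPM per kilobase of exon), the module spanned a wide range of levels. Psap, the precursor of the saposins that help glycosidases reach their lipid substrates, was the highest member in hMPDM (4092 FPKM after LPS and 3798 FPKM at rest) and in BMDM (5457 and 5673 FPKM after LPS, 5777 and 5613 FPKM at rest). In RAW the highest was Gpnmb, a membrane glycoprotein, at 3334 FPKM after LPS and 3496 FPKM at rest, above Psap at 1533 and 1538 FPKM. Lamp1, a heavily glycosylated lysosomal membrane protein, came after Psap and Gpnmb in every library, at 927.6 and 899.5 FPKM in RAW and at 1577 to 1737 FPKM in the other 6 libraries. Tfeb was the lowest member in 7 of the 8 libraries, from 1.39 FPKM in a BMDM LPS library to 4.98 FPKM in unstimulated RAW, and in BMDM unstimulated replicate 1 Mitf (4.23 FPKM) lay below Tfeb (4.37 FPKM). Summed over the 44 genes, the module held 50873 CPM after LPS and 46557 CPM at rest in hMPDM. In RAW it held 31403 and 31771 CPM. In BMDM it held 53723 and 55108 CPM after LPS, against 53908 and 53418 CPM at rest. As a share of the library total, without scaling factors, the module was lower after LPS in each cell type. The share was 4.232% after LPS and 5.057% at rest in hMPDM, and 3.598% and 3.897% in RAW. In BMDM it was 4.456% and 4.567% after LPS, against 5.754% and 5.711% at rest. The rise of the sum in hMPDM and the near-level sums in BMDM therefore rest on the scaling.

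In BMDM, 3 h of LPS moved most of the module by little, and 2 of its transcription factors by much. Of the 44 genes, 18 rose and 13 fell (edgeR quasi-likelihood test, adjusted p under 0.05) with TMM scaling, against 31.7% of all 12461 genes tested called higher and 31.1% called lower. The median log2 change was 0.02 for the module and -0.02 for all genes tested. With TMM scaling, 39 of the 44 changed by less than 0.5 on the log2 scale, as did 7387 of the 12461 genes tested. Tested against a fold change of 1.5, Mitf alone rose and Tfeb alone fell, where 12.4% of all genes passed as higher and 10.3% as lower. The direction of small changes rests on the scaling: without scaling factors the median of all genes was -0.38 and that of the module -0.34, and 3 members (Mitf, Atp6v0b and Atp6v1e1) rose and 36 fell. With the coefficient of variation set at 10%, in place of the 2.27% fitted from the BMDM pairs, 5 members rose (Lamp2, Npc2, Atp6v0b, Atp6v1e1 and Mitf) and 4 fell (Npc1, Neu1, Atp6v0a1 and Tfeb). By the DESeq2 Wald test 13 rose and 6 fell: Ids, Lipa, Atp6v0e, Atp6v1b2 and Atp6ap2 were no longer called among those that rose (adjusted p of 0.051 to 0.18), nor were Gla, Asah1, Smpd1, Gaa, Manba, Atp6v0c and Atp6v1d among those that fell (0.058 to 0.48). Without BMDM unstimulated replicate 2, 13 rose, since Lamp1 (adjusted p = 0.052), Lipa (0.079), Grn (0.081), Atp6v1a (0.057) and Atp6v1b2 (0.23) were not called.

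The MiT/TFE factors moved apart from each other after LPS. In the table's mm10 coordinates they lie on the plus strand, Mitf (ENSMUSG00000035158.11) at chr6:97807058-98021349, Tfeb (ENSMUSG00000023990.14) at chr17:47737030-47792419 and Tfe3 (ENSMUSG00000000134.13) at chrX:7762560-7775202. Mitf stood at 177.9 and 163.3 CPM in the BMDM LPS libraries, against 26.3 and 27.7 CPM in the unstimulated ones. Its log2 change was 2.65 (SE 0.06, 6.26-fold, adjusted p = 3.36e-26). Tfeb, the best studied member of the family as a driver of lysosome formation, stood at 7.86 and 10.0 CPM after LPS, against 24.7 and 22 CPM at rest. Those levels rest on 52 and 127 counts after LPS, against 414 and 454 counts at rest, and the log2 change was -1.32 (SE 0.12, 0.40-fold, adjusted p = 2.75e-11). Tfe3 stood at 161.6 and 162.6 CPM after LPS, against 134.1 and 134.3 CPM at rest, a log2 change of 0.27 (SE 0.04, adjusted p = 2.33e-06) that became -0.09 without scaling factors. Per length, Mitf in the BMDM LPS libraries (28.6 and 26.3 FPKM) was above Tfe3 (17.4 and 17.6 FPKM), whereas in unstimulated BMDM Mitf (4.23 and 4.45 FPKM) was below Tfe3 (14.5 FPKM in both). Tfec, the fourth gene of the family and not a member of the list, rose with Mitf, at 141.0 and 143.1 CPM after LPS, against 37.5 and 35.1 CPM at rest (log2 change 1.97, SE 0.05, adjusted p = 1.12e-23).

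In hMPDM and RAW, where each state has 1 library and the response has no test, Mitf was again higher after LPS. It stood at 137.0 CPM after LPS and 34.4 CPM at rest in hMPDM, a log2 ratio of 1.99 with an exact 95% counting interval of 1.83 to 2.16, which was 1.94 with the BMDM share taken out. In RAW it stood at 107.4 CPM after LPS and 46.8 CPM at rest, a log2 ratio of 1.19 with an interval of 0.95 to 1.45. Tfeb stood at 16.8 CPM after LPS and 21.6 CPM at rest in hMPDM, a log2 ratio of -0.36 with an interval of -0.74 to -0.01. In RAW it stood at 21.6 CPM after LPS and 28.3 CPM at rest, a log2 ratio of -0.38 whose interval, -0.79 to 0.02, includes 0. Tfe3 stood at 174.8 CPM after LPS and 132.3 CPM at rest in hMPDM (log2 ratio 0.40, interval 0.28 to 0.52) and at 171.2 and 125.8 CPM in RAW (0.44, interval 0.28 to 0.61). These intervals take the scaling factors as exact. Without scaling factors the median log2 ratio of all genes was -0.38 in hMPDM and -0.08 in RAW. The smaller ratios, that of Tfe3 in hMPDM among them, therefore rest on the scaling.

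**Figure D1:**
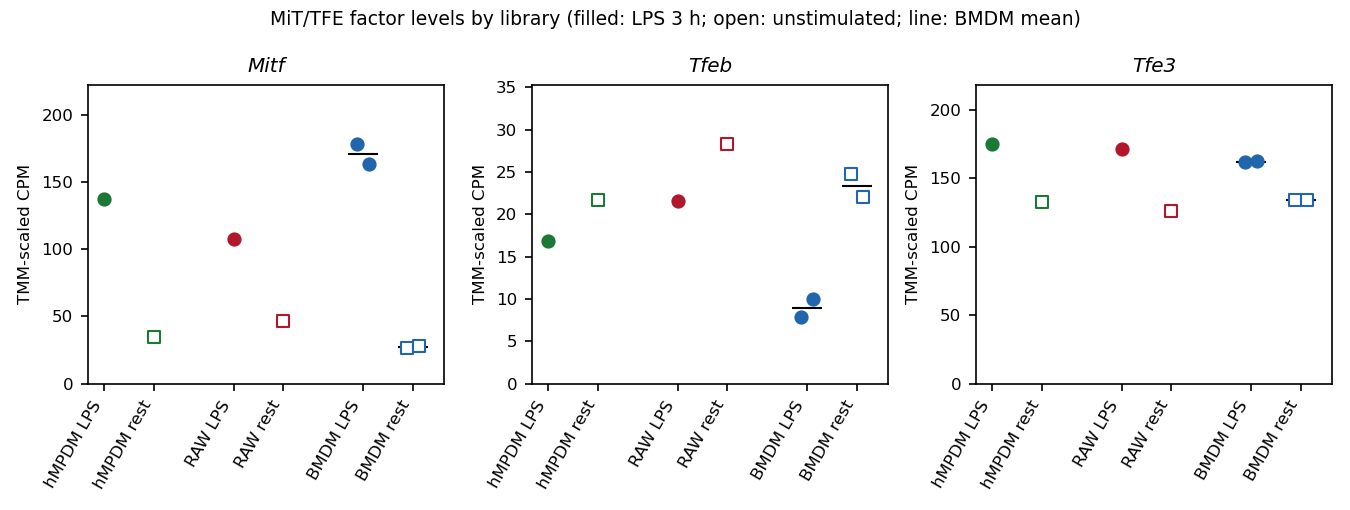
Level of Mitf, Tfe3 and Tfeb in each library, in TMM-scaled CPM, with a point for each library (filled, LPS; open, unstimulated) and a line at the BMDM mean. Mitf was higher after LPS in all 3 cell types (177.9 and 163.3 CPM in BMDM after LPS, against 26.3 and 27.7 CPM at rest), and Tfeb was lowest in the BMDM LPS libraries at 7.86 and 10.0 CPM.

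The 14 proton pump subunits changed in both directions in BMDM: 8 rose and 4 fell, where 31.7% of all genes tested were called higher and 31.1% lower. Their median log2 change was 0.11, and of the 8 that rose only Atp6v0b and Atp6v1e1 stayed above 0 without scaling factors. Atp6v1e1, a peripheral stalk subunit of V1, stood at 335.8 and 334.6 CPM after LPS, against 219.0 and 213.0 CPM at rest (log2 change 0.63, SE 0.04, 1.55-fold, adjusted p = 4.22e-15). Atp6v0b, a proteolipid of the V0 rotor ring, stood at 408.2 and 431.1 CPM after LPS, against 303.4 and 292.1 CPM at rest (log2 change 0.50, SE 0.04, adjusted p = 1.41e-12). In both genes the lowest LPS library was above the highest unstimulated one, a description of 2 libraries a state whose share over all genes was not computed. Atp6v0b shares 11.8% of its exonic bases with Gm12841 on the opposite strand, which had 18 counts over all libraries, against 29898 for Atp6v0b. The largest fall was in Atp6v0a1, an isoform of the V0 a subunit, through which protons pass and which also targets the pump to a membrane. It stood at 337.2 and 350.6 CPM after LPS, against 499.7 and 489.2 CPM at rest (log2 change -0.52, SE 0.04, adjusted p = 2.63e-13). Tcirg1, which encodes the a3 isoform of the same subunit and is not a member of the list, moved the other way, at 1112 and 1192 CPM after LPS, against 764.1 and 735.7 CPM at rest (log2 change 0.62, SE 0.04, adjusted p = 2.81e-15). Atp6v1c1, which joins the stalks of V1, fell by 0.31 on the log2 scale to 282.8 and 285.3 CPM after LPS, against 349.7 and 352.9 CPM at rest. Among the smaller changes, Atp6v1f and Atp6v1h had log2 changes of 0.28 and 0.26, Atp6v1d and Atp6v0c of -0.18 and -0.13 (Atp6v0c was not called without LPS replicate 2, adjusted p = 0.42, or unstimulated replicate 1, 0.076), and the accessory subunit Atp6ap2 (also called the prorenin receptor) of 0.15. Atp6v0e, Atp6v1a and Atp6v1b2 had log2 changes of 0.18, 0.12 and 0.11. Of the other accessory subunit, Atp6ap1, and of Atp6v0d1 no change was called.

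**Figure D2:**
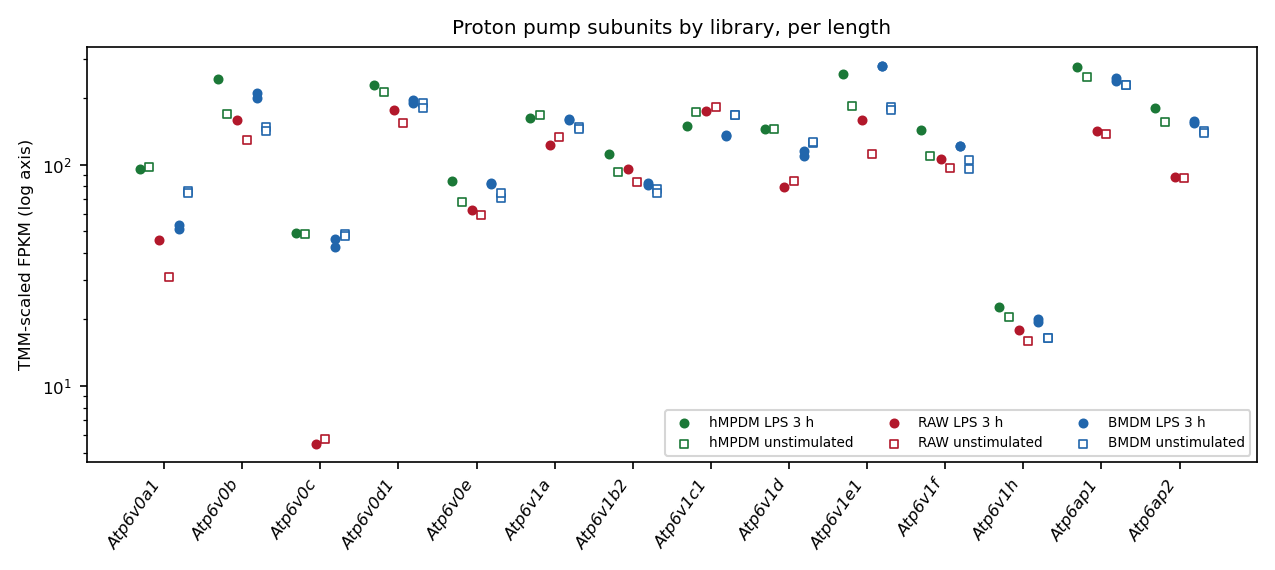
Level per length (TMM-scaled FPKM, log axis) of the 14 proton pump subunits in each library, with filled circles for LPS and open squares for unstimulated cells. Atp6v0c in RAW stands apart at 5.50 FPKM after LPS and 5.80 FPKM at rest, against 42.3 to 49.1 FPKM in the other 6 libraries.

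Among the 7 membrane proteins, 4 rose in BMDM (Lamp1, Lamp2, Cd63 and Scarb2) and 1 fell (Npc1), where 31.7% of all genes tested were called higher and 31.1% lower. All 4 that rose were below 0 without scaling factors. Lamp2, a heavily glycosylated protein of the lysosomal membrane that also serves chaperone-mediated autophagy, stood at 1107 and 1066 CPM after LPS, against 848.7 and 859.0 CPM at rest (log2 change 0.35, SE 0.03, adjusted p = 3.67e-10). Npc1, which moves cholesterol out through the lysosomal membrane, stood at 449.3 and 446.3 CPM after LPS, against 599.9 and 601.3 CPM at rest (log2 change -0.42, SE 0.04, adjusted p = 7.96e-12). Its soluble partner Npc2, which hands cholesterol to Npc1, moved the other way, at 1528 and 1534 CPM after LPS, against 1217 and 1170 CPM at rest (log2 change 0.36, SE 0.03, adjusted p = 1.34e-10), a change of -0.01 without scaling factors. For both sterol genes, as for Lamp2, the LPS and unstimulated libraries did not overlap. With 2 libraries a state this is a description only, and the share of all genes that separate so was not computed. Scarb2, the receptor that carries glucocerebrosidase to lysosomes, had a log2 change of 0.30, the tetraspanin Cd63 of 0.20 and Lamp1 of 0.11. Of Gpnmb (-0.02) and of Mcoln1, the calcium channel TRPML1 (-0.10), no change was called.

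With TMM scaling, the 20 hydrolases and cofactors lay close to 0 in BMDM: 4 rose (20%), 7 fell (35%) and 9 were not called, where 31.7% of all genes tested were called higher and 31.1% lower. All 20 changed by less than 0.5 on the log2 scale, as did 7387 of the 12461 genes tested, and their median was -0.03. Without scaling factors the median of all genes was -0.38, so the size of these changes rests on the scaling. All 4 that rose (Ids, Lipa, Npc2 and Grn) were below 0 without scaling factors. Of the 8 genes of sphingolipid and ganglioside breakdown, 4 fell and 0 rose. The largest fall was in Neu1, a sialidase, at 149.0 and 151.3 CPM after LPS, against 198.3 and 192.1 CPM at rest (log2 change -0.38, SE 0.04, adjusted p = 6.50e-09). The others that fell were Gla (alpha-galactosidase A, -0.18), Smpd1 (acid sphingomyelinase, -0.18) and Asah1 (acid ceramidase, -0.09), and Hexa, Glb1, Psap and Gm2a lay between -0.04 and 0.03. Asah1 was not called without any 1 of 3 BMDM libraries (adjusted p of 0.41 without LPS replicate 2, 0.061 without unstimulated replicate 1 and 0.23 without unstimulated replicate 2), and Smpd1 was not called without either LPS replicate or unstimulated replicate 1 (0.067 to 0.11). Of the 6 genes of glycan breakdown, Ids (iduronate 2-sulfatase) had a log2 change of 0.20, Manba (beta-mannosidase) of -0.17 and Gaa (acid alpha-glucosidase) of -0.11, while no change was called of Gusb (beta-glucuronidase, -0.02), Idua (-0.03) and Man2b1 (0.05). Manba was not called without unstimulated replicate 2 (adjusted p = 0.084), and Gaa was not called without LPS replicate 1 (0.36) or unstimulated replicate 1 (0.18). Lgmn (legumain, an asparaginyl endopeptidase) fell by 0.19 on the log2 scale, at 855.3 and 909.1 CPM after LPS, against 1007 and 1009 CPM at rest. Lipa had a log2 change of 0.09, and was not called without either unstimulated replicate (adjusted p of 0.15 and 0.079). Of Tpp1, a tripeptidyl peptidase (-0.03), and of Ppt1 (-0.02) no change was called. Grn (progranulin) had a log2 change of 0.11, and was not called without LPS replicate 2 (adjusted p = 0.085) or unstimulated replicate 2 (0.081).

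The untested responses of hMPDM and RAW were small outside Mitf. By the size rule of at least 2-fold with at least 5 CPM, Mitf was the only member past it in hMPDM, where 7.98% of all genes tested were higher and 5.61% lower. Mitf was also the only member past it in RAW, where 2.07% were higher and 0.923% lower. Between the BMDM replicates of a state, 5 genes (LPS) and 1 gene (rest) passed a 2-fold difference, none of them a member. The median log2 ratio of the module was 0.11 in hMPDM, against -0.01 for all genes tested, and -0.00072 in RAW, against 0 for all genes tested, and without scaling factors the median of all genes was -0.38 in hMPDM and -0.08 in RAW. Atp6v1e1 was higher after LPS in each cell type: at 308.9 CPM after LPS and 220.8 CPM at rest in hMPDM (log2 ratio 0.48, interval 0.40 to 0.57), and at 191.1 and 134.7 CPM in RAW (0.50, interval 0.35 to 0.66). Atp6v0b had log2 ratios of 0.52 in hMPDM and 0.30 in RAW, and Npc1 of -0.30 and -0.23. With the BMDM share taken out, the hMPDM ratios were -0.28 for Tfeb, 0.41 for Tfe3, 0.47 for Atp6v1e1, 0.55 for Atp6v0b and -0.31 for Npc1, that of Atp6v0a1 was 0.05 in place of -0.02, and the median of the module was 0.09. The other highest and lowest members of each role in hMPDM were Lamp2 (0.43), Gla (0.15) and Neu1 (-0.23), Ids (0.38) and Manba (-0.36), Npc2 (0.41) and Lipa (0.05), Grn (0.21) and Ppt1 (-0.20), Atp6v1c1 (-0.20), and Atp6ap2 (0.20) and Atp6ap1 (0.14). In RAW they were Cd63 (0.28), Glb1 (0.05) and Gm2a (-0.25), Gusb (0.04) and Man2b1 (-0.18), Npc2 (0.15) and Lipa (-0.12), Grn (0.06) and Lgmn (-0.27), Atp6v0a1 (0.56) and Atp6v0c (-0.07), Atp6v1a (-0.11), and Atp6ap1 (0.05) and Atp6ap2 (0.02). With TMM scaling, 18 members (40.9%) were above 0 in all 3 cell types and 11 (25%) below 0 in all 3, against 26.6% and 28.4% of all genes tested. Without scaling factors 3 members (6.82%) were above 0 in all 3 and 32 (72.7%) below 0, against 13.1% and 48.7% of all genes.

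**Figure D3:**
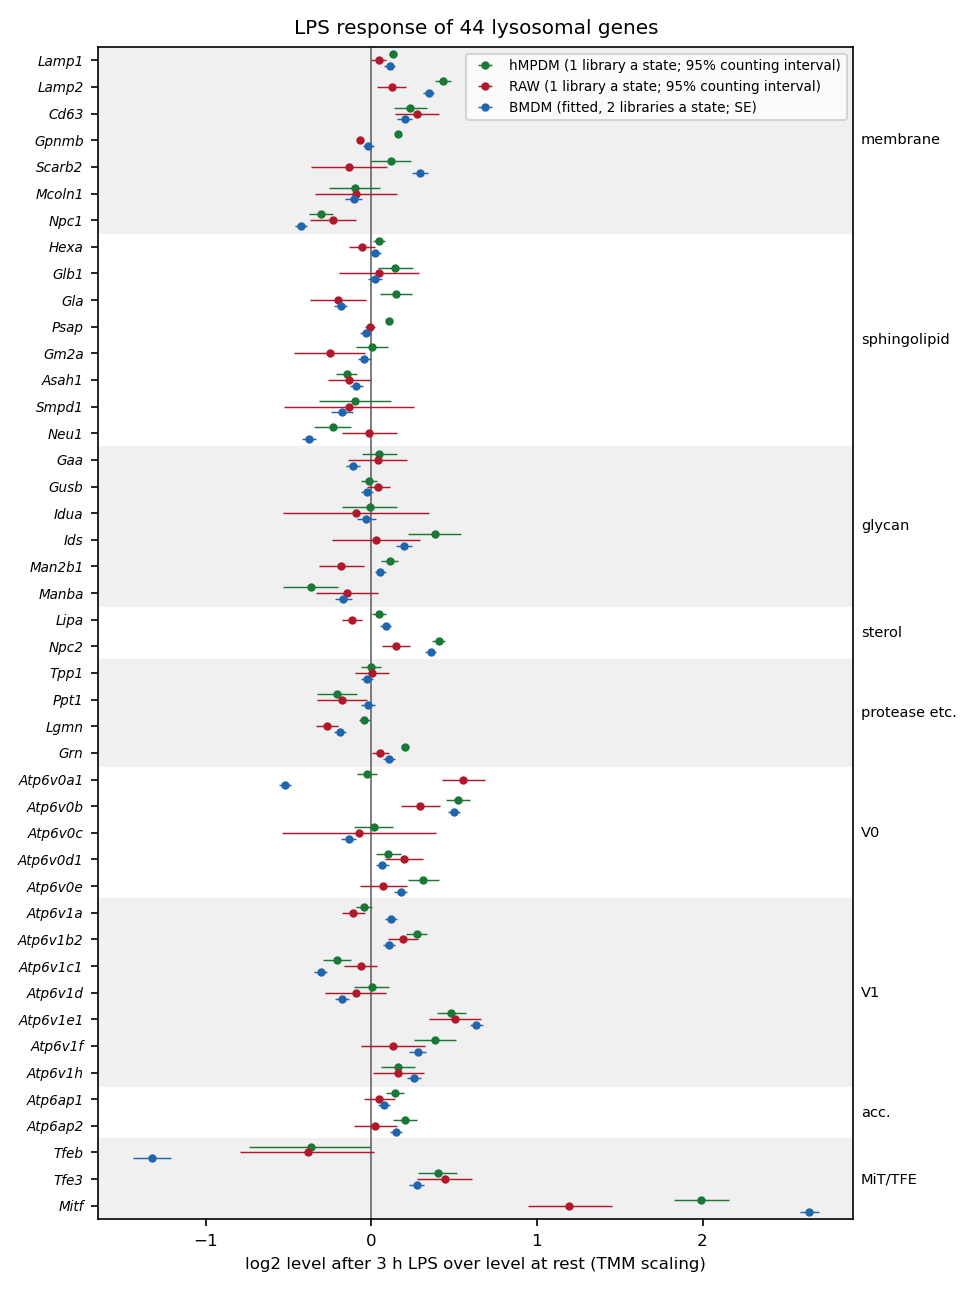
Log2 level after 3 h of LPS over that at rest for the 44 genes, grouped by role, with hMPDM and RAW as single-library ratios (bars, exact 95% counting interval) and BMDM as fitted values (bars, SE). Mitf lies to the right in all 3 cell types (1.99, 1.19 and 2.65) and Tfeb to the left in BMDM (-1.32), while small positive changes in BMDM turn below 0 without scaling factors.

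The difference between cell types in the response to LPS was tested itself, on the assumption that a single library varies like the BMDM pairs. A higher response means a more positive log2 change, which for Tfeb was a weaker fall than in BMDM. Against BMDM, 3 members had a higher response in hMPDM and 1 a lower one, where 3.96% of all genes tested were called higher and 3.89% lower. Mitf differed by -0.65 (SE 0.11, adjusted p = 1.69e-04) and Tfeb by 0.96 (SE 0.24, adjusted p = 0.00751). Atp6v0a1 differed by 0.50 (SE 0.06, adjusted p = 2.36e-06): it stood at 626.6 CPM after LPS and 637.5 CPM at rest in hMPDM, whereas it fell in BMDM. The fourth was Gla, at 0.33, with 254.4 CPM after LPS and 229.5 CPM at rest in hMPDM. With the BMDM share taken out, these differences were -0.70, 1.04, 0.57 and 0.34, and 5 members had a higher response. Without BMDM LPS replicate 2, 5 members had a higher response as well. Mitf (adjusted p = 0.071) and Gla (0.24) were not called by the DESeq2 Wald test, which gave no adjusted p for Tfeb, and none of the 4 was called with the coefficient of variation set at 10%.

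Against BMDM, 4 members had a higher response in RAW and 7 a lower one, where 10% of all genes tested were called higher and 12.7% lower. 8 of these 11 calls were lost under each of 2 other settings: the DESeq2 Wald test called 1 higher (Atp6v0a1) and 2 lower (Mitf and Lipa), and a coefficient of variation of 10% left 2 higher (Atp6v0a1 and Tfeb) and 1 lower (Mitf). Mitf differed by -1.45 (SE 0.15, adjusted p = 1.22e-08), and Tfeb by 0.94 (SE 0.24, adjusted p = 0.00436). The largest difference in the other direction was in Atp6v0a1, at 1.08 (SE 0.08, adjusted p = 2.30e-11): it stood at 299.2 CPM after LPS and 203.3 CPM at rest in RAW, a log2 ratio of 0.56 with an interval of 0.43 to 0.69. Neu1 (0.36) and Atp6v1c1 (0.24) also had a higher response in RAW, as a weaker fall: their log2 ratios were -0.01 and -0.06 in RAW, against log2 changes of -0.38 and -0.31 in BMDM. Scarb2 (-0.43), Man2b1 (-0.24), Atp6v1a (-0.23), Lamp2 (-0.22), Npc2 (-0.21) and Lipa (-0.21) had a lower response in RAW. Without scaling factors, where the median of all genes for this difference was 0.27, Man2b1, Atp6v1a, Lamp2, Npc2 and Lipa were above 0, and 22 members were called higher and 1 lower. Without BMDM unstimulated replicate 1, 4 members were called lower in place of 7, and Lamp2 (adjusted p = 0.053), Man2b1 (0.060) and Lipa (0.053) were not called. Without BMDM unstimulated replicate 2, Man2b1 (0.081), Npc2 (0.096) and Atp6v1c1 (0.053) were not called.

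In the fit with a single LPS term over the 3 cell types, in which BMDM weighs most, 12 members rose and 6 fell, where 25% of all genes tested were called higher and 24.2% lower. Without scaling factors, 2 rose and 29 fell. Mitf was again the largest rise (log2 change 2.17, SE 0.24, adjusted p = 6.90e-04) and the only member past a fold change of 1.5, a test that 8.43% of all genes passed as higher and 5.26% as lower. Tfeb fell by 0.89 (SE 0.21, adjusted p = 0.0111), and was not called without BMDM LPS replicate 2 (0.057). Atp6v1e1 rose by 0.57 (SE 0.06, adjusted p = 5.08e-04), Atp6v0b by 0.45, Tfe3 by 0.35, Npc2 by 0.32 and Lamp2 by 0.31, and Npc1 fell by 0.35. Tfe3, Npc2, Lamp2 and Atp6v0b were not called without scaling factors. Neu1 fell by 0.25 and was called only with all BMDM and hMPDM libraries present (adjusted p of 0.072 to 0.098 without any 1 of them). The same held for Ids (log2 change 0.21, adjusted p of 0.079 to 0.16 without any 1 of them) and Atp6v1c1 (-0.22, 0.052 to 0.086). Manba fell by 0.21 and Lgmn by 0.17, and each lost its call without some of these libraries (adjusted p of 0.060 to 0.079 for Manba and 0.088 to 0.13 for Lgmn). With the BMDM share taken out of the hMPDM LPS library, 12 rose and 5 fell, and Lgmn was not called (adjusted p = 0.10). Leaving out 1 library at a time gave 6 to 16 members higher and 1 to 8 lower.

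At rest, the module was lower in RAW than in BMDM. Of the 44 genes, 34 were lower and 3 higher in RAW, where 31.3% of all genes tested were called lower and 27.1% higher. Tested against a fold change of 1.5, 19 members were lower and 0 higher, where 14.9% of all genes passed as lower and 11.2% as higher. The median log2 difference was -0.65 for the module and -0.06 for all genes tested, and -0.46 and 0.13 without scaling factors, under which 27 members were lower and 6 higher. RAW is represented by 1 unstimulated library of 3116434 counts. The 8 osteoclast markers, of which 7 had reads, summed to 245 and 251 CPM in RAW (LPS and rest), against 65.1 and 71.8 CPM (LPS) and 80.9 and 79.8 CPM (rest) in BMDM, and the 9 neutrophil markers to 4.49 and 4.45 CPM in RAW, against 96.3 and 90.1 CPM (LPS) and 59.1 and 65.8 CPM (rest) in BMDM. The osteoclast markers were split: of the 5 that passed the filter, 3 were above BMDM and 2 below in RAW at rest (log2 difference -0.79 to 5.25). The part of these markers in the result was not tested.

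**Figure D4:**
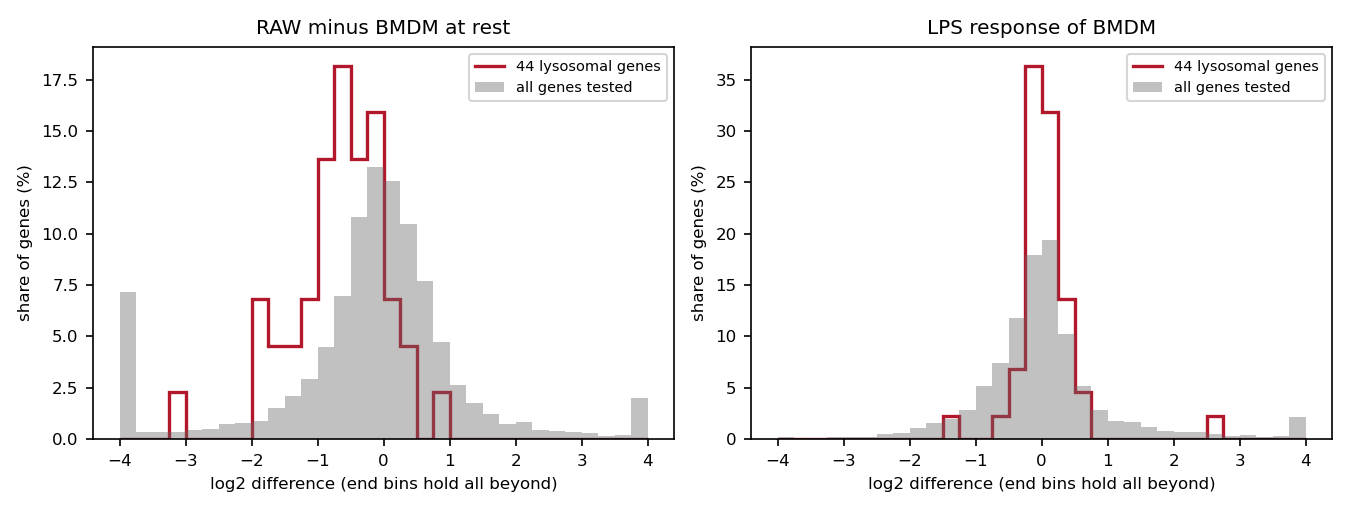
Distribution of the log2 difference of RAW minus BMDM at rest and of the LPS response of BMDM, as the share of genes (%) per bin of 0.25 log2 units, for the 44 lysosomal genes (line) and for all 12461 genes tested (grey), with values beyond the axis in the end bins. The module lies left of all genes in RAW (median -0.65 against -0.06) and near 0 in the LPS response of BMDM (0.02 against -0.02 with TMM scaling, -0.34 against -0.38 without scaling factors).

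Of the 20 hydrolases and cofactors, 17 were lower in RAW at rest and 1 was higher, where 31.3% of all genes tested were called lower and 27.1% higher. Their median log2 difference was -0.87. Psap stood at 4220 CPM in unstimulated RAW, against 15853 and 15403 CPM in unstimulated BMDM (log2 difference -1.89, SE 0.05, 0.27-fold, adjusted p = 5.98e-24). Glb1, the lysosomal beta-galactosidase, stood at 67.5 CPM in RAW, against 235.5 and 237.8 CPM in BMDM (log2 difference -1.81, SE 0.08, adjusted p = 3.06e-17). Idua, which removes iduronic acid from glycosaminoglycans, stood at 21.7 CPM in RAW, from 83 counts, against 73.6 and 82.2 CPM in BMDM (log2 difference -1.85, SE 0.14, adjusted p = 2.67e-12). Man2b1 (lysosomal alpha-mannosidase) differed by -1.73, Gm2a (the GM2 activator, which presents the ganglioside to hexosaminidase A) by -1.57, Npc2 by -1.13, Hexa by -1.09 and Grn by -1.0. Ids (-0.88), Tpp1 (-0.74), Gaa (-0.64), Lipa (-0.56) and Gusb (-0.28) were lower as well. All 8 sphingolipid genes were lower in RAW, from -0.45 (Neu1) to -1.89 (Psap). Manba was the exception among the hydrolases, at 115.4 CPM in RAW, against 84.0 and 87.3 CPM in BMDM (log2 difference 0.43, SE 0.08, adjusted p = 4.01e-05). Of Lgmn (-0.10) and Ppt1, the palmitoyl thioesterase (0.05), no difference was called. Glb1 shares 7.3% of its exonic bases with Tmppe on the same strand, and Ppt1 3.5% with Cap1 on the opposite strand, so reads there may be split between the genes or lost to both, and the sources used here do not give the strand setting of the counting.

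All 7 membrane proteins were lower in RAW at rest, where 31.3% of all genes tested were called lower and 27.1% higher. However, Gpnmb, at 13279 CPM in RAW against 14830 and 15021 CPM in BMDM (log2 difference -0.17), was at 0.03 without scaling factors. Npc1 stood at 213.5 CPM in RAW, against 599.9 and 601.3 CPM in BMDM (log2 difference -1.49, SE 0.06, adjusted p = 4.34e-19). Lamp1 stood at 2028 CPM in RAW, against 3614 and 3587 CPM in BMDM, and Lamp2 at 480.4 CPM in RAW, against 848.7 and 859.0 CPM in BMDM, each with a log2 difference of -0.83. Scarb2 differed by -0.67, Mcoln1 by -0.47 and Cd63 by -0.31.

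The pump subunits were uneven in RAW at rest, with 10 lower, 1 higher and 3 not called, where 31.3% of all genes tested were called lower and 27.1% higher. Atp6v0c, the main proteolipid of the V0 ring, stood at 18.6 CPM after LPS and 19.6 CPM at rest in RAW, from 87 and 75 counts, against 156.3 and 143.0 CPM (LPS) and 165.2 and 160.8 CPM (rest) in BMDM. Its log2 difference at rest was -3.05 (SE 0.12, 0.12-fold, adjusted p = 1.30e-18), the lowest value of the module. The pseudogene Atp6v0c-ps2 had 520 counts over all libraries, against 12580 for Atp6v0c, and reads shared with near-identical copies can be lost or split, which makes the level of Atp6v0c uncertain. Atp6v0a1 stood at 203.3 CPM in RAW, against 499.7 and 489.2 CPM in BMDM (log2 difference -1.28, SE 0.06, adjusted p = 4.78e-17), whereas of Tcirg1 no difference was called (744.3 CPM in RAW, against 764.1 and 735.7 CPM in BMDM). In the V1 sector, Atp6v1e1 differed by -0.68 and Atp6v1d by -0.58, while of Atp6v1c1 (0.12), Atp6v1f (-0.05) and Atp6v1h (-0.04) no difference was called. Atp6v1a, the subunit that hydrolyses ATP, differed by -0.14 and Atp6v0b by -0.16, and both were above 0 without scaling factors (0.05 and 0.03) and not called without BMDM unstimulated replicate 1 (adjusted p of 0.061 and 0.097). Atp6v1b2 was higher by 0.13, a call lost without BMDM unstimulated replicate 2 (adjusted p = 0.15). Atp6v0d1 and Atp6v0e differed by -0.26 and -0.30, and the accessory subunits Atp6ap1 and Atp6ap2 by -0.74 and -0.70. The pump genes outside the module went the other way: of 8 tested, 4 were higher and 2 lower in RAW, with a median of 0.23. Among these 8, Atp6v0e2 stood at 49.4 CPM in unstimulated RAW, against 0.18 and 0.05 CPM in unstimulated BMDM.

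The MiT/TFE factors did not share this direction. Mitf stood at 46.8 CPM in unstimulated RAW, against 26.3 and 27.7 CPM in unstimulated BMDM (log2 difference 0.79, SE 0.13, adjusted p = 5.87e-06). Of Tfeb (28.3 CPM in RAW, against 24.7 and 22 CPM in BMDM, log2 difference 0.28) and of Tfe3 (125.8 CPM in RAW, against 134.1 and 134.3 CPM in BMDM, log2 difference -0.09 with TMM scaling and 0.11 without scaling factors) no difference was called. Tfeb was called higher in RAW without scaling factors (0.48).

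hMPDM and BMDM differed less at rest. Of the 44 genes, 18 were higher and 9 lower in hMPDM, where 19% of all genes tested were called higher and 19.2% lower, and the median was 0.04 for the module and -0.0037 for all genes tested. Tested against a fold change of 1.5, Lgmn was higher and 0 members were lower, where 3.12% of all genes passed as higher and 5.02% as lower. Lgmn stood at 2036 CPM after LPS and 2097 CPM at rest in hMPDM, against 1007 and 1009 CPM in unstimulated BMDM (log2 difference at rest 1.06, SE 0.04, 2.08-fold, adjusted p = 4.92e-19). Psap was the lowest, at 10420 CPM in hMPDM, against 15853 and 15403 CPM in BMDM (log2 difference -0.58, SE 0.04, adjusted p = 2.07e-12), followed by Gpnmb (-0.47), Ids (-0.44) and Lipa, the acid lipase (-0.35). Of the 14 pump subunits, 9 were higher and 0 lower in hMPDM, led by Atp6v0a1 at 637.5 CPM in hMPDM, against 499.7 and 489.2 CPM in BMDM (log2 difference 0.37, SE 0.04, adjusted p = 1.76e-08) and by Atp6v1h (0.31). Asah1 (0.31), Grn (0.32), Hexa (0.24) and Mitf (0.35, at 34.4 CPM in hMPDM against 26.3 and 27.7 CPM in BMDM) were also higher, as were Manba (0.22), Mcoln1 (0.16) and Atp6ap2 (0.15). Mcoln1 was not called without either BMDM unstimulated replicate (adjusted p of 0.11 and 0.076), nor Atp6ap2 without replicate 2 (0.063). The neutrophil markers summed to 17.5 CPM in unstimulated hMPDM, against 59.1 and 65.8 CPM in unstimulated BMDM, and the osteoclast markers to 86.4 CPM in hMPDM, against 80.9 and 79.8 CPM in BMDM. Of the 5 osteoclast markers that passed the filter, 2 were above BMDM and 3 below (log2 difference -1.10 to 0.94). The part of these marker lists in the result was not tested. With the coefficient of variation set at 10%, Lgmn was the only member higher and Psap the only one lower. By the DESeq2 Wald test 9 were higher and 5 lower, and Mitf (adjusted p = 0.17), Manba (0.48), Mcoln1 (0.78) and Atp6ap2 (0.22) were not called.

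**Figure D5:**
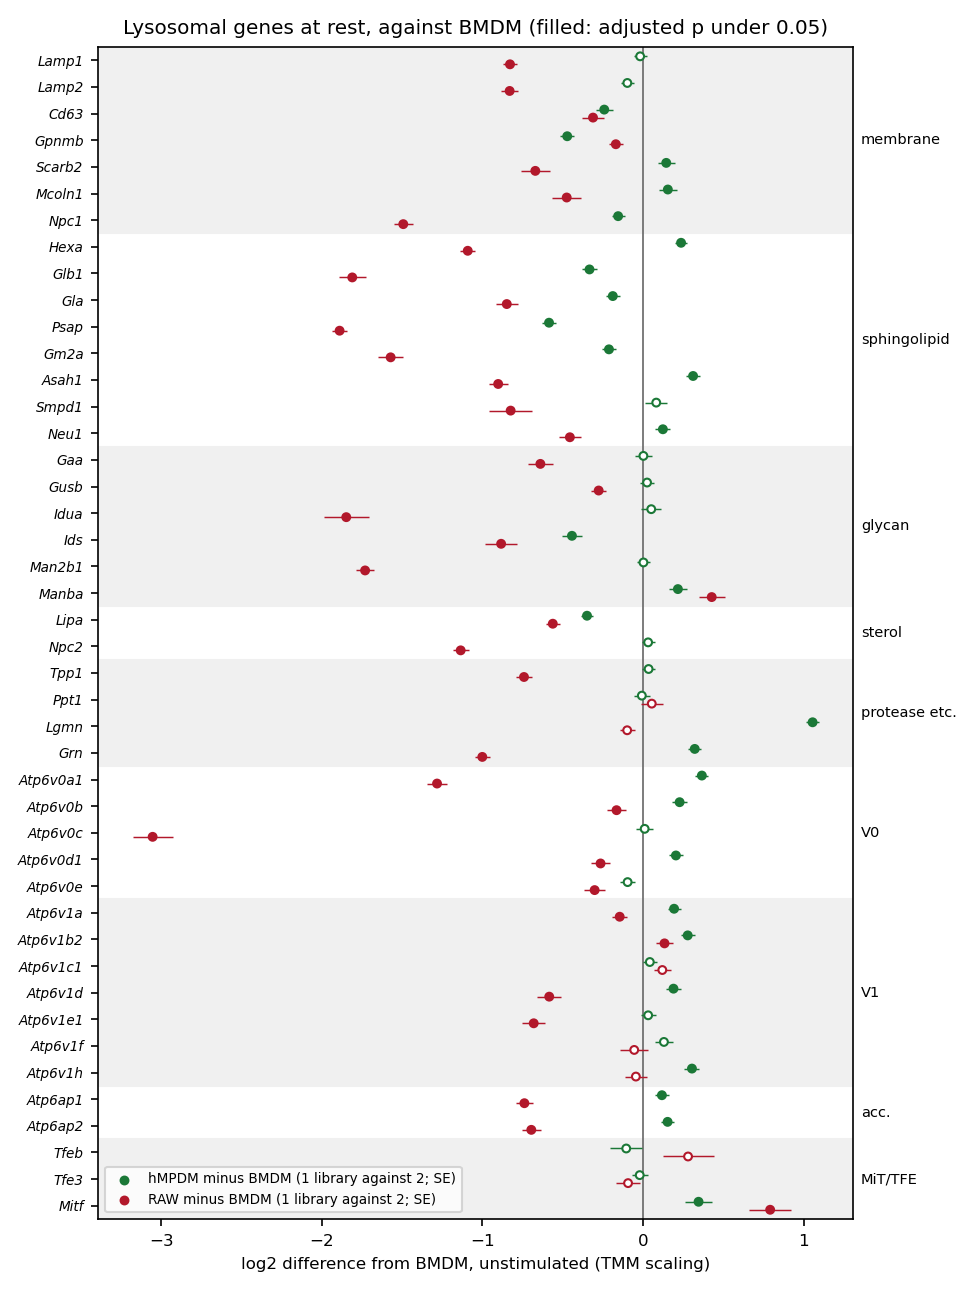
Log2 difference of unstimulated hMPDM and RAW from unstimulated BMDM for the 44 genes, grouped by role (bars, SE; filled points, adjusted p under 0.05; TMM scaling). The RAW points lie mostly left of 0, with Atp6v0c at -3.05 and Psap at -1.89, and the hMPDM points lie between -0.58 (Psap) and 0.37 (Atp6v0a1) except Lgmn at 1.06. Gpnmb, Atp6v0b and Atp6v1a in RAW were above 0 without scaling factors.

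The members can also be set out by the E-box in their promoter windows, as a description with no test. The 29 genes without CACGTG include Tpp1, Ppt1, Grn and Atp6v0c, which hold the related TCATGTGA. In the LPS response of BMDM, 4 of the 10 genes with CACGTG rose and 3 fell, with a median log2 change of 0.04, and 12 of the 29 without it rose and 7 fell, with a median of 0.03 (TMM scaling). Of all genes tested, 31.7% were called higher and 31.1% lower, with a median of -0.02. In RAW at rest, 9 of the 10 were lower and 0 higher, with a median of -0.39, and 23 of the 29 were lower and 2 higher, with a median of -0.70. Of all genes tested, 31.3% were called lower and 27.1% higher, with a median of -0.06. Lamp1, with 4 copies, changed by 0.11 in BMDM after LPS (-0.26 without scaling factors), while Mitf and Tfeb, with the largest changes, had none in their windows.

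Other genes of the pathway, from lists of pump subunits, hydrolases, membrane proteins, sorting receptors, mTORC1 signalling, autophagy and lysosome positioning, numbered 167, of which 161 were tested. In BMDM after LPS 56 of them (34.8%) rose and 55 (34.2%) fell, against 31.7% and 31.1% of all genes, with a median log2 change of -0.02. Sqstm1 and Acp5 moved further than Mitf did. Sqstm1 (p62), the adaptor that takes ubiquitinated cargo to autophagosomes, stood at 6230 and 6288 CPM after LPS, against 925.8 and 920.0 CPM at rest (log2 change 2.76, SE 0.03, adjusted p = 2.10e-32). Acp5, the tartrate-resistant acid phosphatase, stood at 28.4 and 35.8 CPM after LPS, against 1.20 and 1.11 CPM at rest (log2 change 4.83, SE 0.16, adjusted p = 1.73e-21). Mcoln2, a channel related to Mcoln1, changed by 2.09, at 453.0 and 479.8 CPM after LPS, against 114.2 and 105.9 CPM at rest. Hyal1, a hyaluronidase, fell by 1.86 to 12.4 and 13.7 CPM after LPS, against 48.4 and 47.6 CPM at rest, and Fnip2, a folliculin partner in nutrient signalling to mTORC1, fell by 1.45. Among the sorting genes, M6pr (the cation-dependent mannose 6-phosphate receptor) had a log2 change of 0.65 and Cln8, which helps hydrolases leave the endoplasmic reticulum, of -0.85. Uvrag (-0.96), Vps18 (-0.77), Slc37a2 (-0.97) and Tmem199 (-0.55), a V-ATPase assembly factor, were the largest falls of the autophagy, fusion, membrane and pump lists. The largest rise of the positioning list, Syt7, rests on 10 and 8 counts after LPS, against 1 and 1 at rest. In RAW at rest, 86 of the 161 (53.4%) were lower and 24 (14.9%) higher than in BMDM, against 31.3% and 27.1% of all genes, with a median of -0.31. The pump list among them went the other way, with 4 of 8 higher and 2 lower. In hMPDM at rest 68 (42.2%) were higher and 21 (13.0%) lower, against 19% and 19.2% of all genes.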

How the data were processed

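The authors deposited whole-number read counts for each gene, with no normalization. Per the submitters' processing notes, cutadapt, STAR, SAMtools, bedtools and featureCounts were used with the mm10 build; the sources used here give no versions, annotation release or strand setting. Per the labels' protocols, the kit was stranded. Of 10 value columns, 8 matched a labelled sample; 2 with hMPDM names did not and were not used. Identifiers were named with a reference list of gene symbols (42462 matched, 884 did not, 20 shared a symbol). Genes were kept by filterByExpr and scaled by TMM in edgeR 4.0.16 (R 4.3.3), which left 12461 genes. The quasi-likelihood model gave each of the 6 groups its own coefficient, so its 2 residual degrees of freedom come from the BMDM replicates alone, and single libraries are assumed to vary like them. The fit of a single LPS term with cell type has 4. Adjusted p-values are Benjamini-Hochberg values over all genes tested, called at 0.05, and each SE is the absolute log2 value over the square root of F. Comparisons of 1 library with 1 library have a log2 ratio (prior count 2) with an exact 95% counting interval and no test. Intervals and the floor of 3 counts (0.155 to 0.963 CPM by library) cover counting error only, since reads are not independent molecules. Library-size scaling, DESeq2 1.42.0 size factors and its Wald test, no filter, a fold change of 1.5, a coefficient of variation of 10%, a replicate block, leaving out each library and taking a BMDM share out of the hMPDM LPS library were the alternatives.

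The 44 members and the other lists were chosen with earlier results of these data known. The rule named Tfeb, Tfe3, Mitf and, in each role and comparison, the called member (in untested comparisons, any member) with the largest rise and the one with the largest fall; the larger changes are given by library and the smaller ones by their log2 value alone. From each other list the largest rise and fall in the LPS response of BMDM are named. Promoter windows are from RefSeq (GRCm38.p6).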

Additional observations from a re-analysis of the deposited data

Results flagged for a closer look

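The members below had an LPS response that differed from that of BMDM in the interaction test (edgeR, adjusted p under 0.05). A higher response is a more positive log2 change, which for Tfeb, Neu1 and Atp6v1c1 was a weaker fall than in BMDM. The response of hMPDM was higher than that of BMDM for Tfeb (by 0.96 on the log2 scale), Atp6v0a1 (0.50) and Gla (0.33), and lower for Mitf (-0.65).

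The response of RAW was higher than that of BMDM for Atp6v0a1 (1.08), Tfeb (0.94), Neu1 (0.36) and Atp6v1c1 (0.24). It was lower for Mitf (-1.45), Scarb2 (-0.43), Man2b1 (-0.24), Atp6v1a (-0.23), Lamp2 (-0.22), Npc2 (-0.21) and Lipa (-0.21). The 6 summed LPS markers moved with these cell types, at 7972 CPM in hMPDM, 1522 CPM in RAW and 11948 and 11650 CPM in BMDM after LPS. In RAW, 1 of the 6 had a log2 ratio of 0. The part of the LPS markers in these differences was not tested. The DESeq2 Wald test kept the calls of Atp6v0a1 in both cell types and of Mitf and Lipa in RAW, and gave no adjusted p for Tfeb in hMPDM; the others were not called by it.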

How the results depend on the processing

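The counts below are members called higher and lower. Without scaling factors they were 3 and 36 for the LPS response of BMDM, 6 higher for RAW at rest, 22 and 1 for the LPS response of RAW minus that of BMDM, and 2 and 29 for the LPS response common to the cell types. Under the same scaling the sign turned in the LPS response of BMDM for Lamp1 (-0.26), Lamp2 (-0.0195), Cd63 (-0.16), Scarb2 (-0.0709), Ids (-0.17), Lipa (-0.28), Npc2 (-0.00654), Grn (-0.26), Atp6v0e (-0.19), Atp6v1a (-0.25), Atp6v1b2 (-0.26), Atp6v1f (-0.0859), Atp6v1h (-0.11), Atp6ap2 (-0.21) and Tfe3 (-0.0926). It also turned in hMPDM at rest for Tfe3 (0.0039) and in RAW at rest for Gpnmb (0.0306), Atp6v0b (0.0349), Atp6v1a (0.0546) and Tfe3 (0.11). In the response of RAW minus BMDM it turned for Lamp2 (0.0446), Man2b1 (0.0317), Lipa (0.0619), Npc2 (0.0570) and Atp6v1a (0.0398), and in the common response for Cd63 (-0.0808), Ids (-0.10), Atp6v0e (-0.12), Atp6v1b2 (-0.13), Atp6v1f (-0.0368) and Atp6v1h (-0.10). The scaling itself moves every value of a comparison by about the same amount. No filter on low counts gave 7 higher in the common response. The DESeq2 Wald test gave 6 lower in BMDM after LPS, 9 and 5 for hMPDM at rest, 0 lower for the response of hMPDM minus BMDM and 1 and 2 for that of RAW minus BMDM. Testing against a fold change of 1.5 gave 1 and 1 in BMDM after LPS, 1 and 0 for hMPDM at rest, 0 and 19 for RAW at rest, 0 and 0 for the response of hMPDM minus BMDM, 1 and 1 for that of RAW minus BMDM, and 1 and 0 in the common response. A coefficient of variation of 10% gave 5 and 4 in BMDM after LPS, 1 and 1 for hMPDM at rest, 1 higher for RAW at rest, 0 and 0 for the response of hMPDM minus BMDM, 2 and 1 for that of RAW minus BMDM, and 7 and 3 in the common response. Taking the BMDM share out of the hMPDM LPS library gave 5 higher for the response of hMPDM minus BMDM. For the changes under DESeq2, no filter and the share, the cause was not tested.

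The labels do not say whether the replicate numbers pair the BMDM libraries. Deviations of same-numbered libraries had a correlation of -0.035. As the deviations also hold counting noise, this does not show that the libraries are unpaired. A fit with the replicate number as a block gave 3 lower for the response of RAW minus BMDM and 2 lower in the common response, and other counts stayed within 1.5 times. Leaving out 1 library at a time gave 13 to 20 higher and 9 to 11 lower in BMDM after LPS, 14 to 19 and 9 to 10 for hMPDM at rest, 2 to 4 and 32 to 34 for RAW at rest, 3 to 5 and 1 to 1 for the response of hMPDM minus BMDM, 3 to 4 and 4 to 8 for that of RAW minus BMDM, and 6 to 16 and 1 to 8 in the common response. Depth limits Tfeb, with 52 to 454 counts a library, and Idua and Atp6v0c in RAW, with 75 to 95 counts.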
